A study of Homo sapiens with 6 samples.

Results

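The genes described here encode the constitutive proteasome: the alpha and beta rings of the 20S core, the 19S cap, the activators that can replace that cap, the regulator PSMF1 and the factors that assemble the particle. Members were all genes whose only symbol in the array annotation begins with PSMA, PSMB, PSMC, PSMD, PSME, PSMF or PSMG and a digit, without the induced subunits PSMB8, PSMB9 and PSMB10 and without pseudogenes. This took 44 of the 18417 genes measured. Of these, 42 have a role in the proteasome: 16 core subunits, 14 cap subunits, 7 assembly factors, 4 activators and PSMF1. The remaining 2, PSMC3IP, a meiotic recombination factor, and PSME3IP1, which encodes a protein that binds PSME3, were taken by their prefix only and were left out of the counts below. The cap subunits PSMC5, PSMD7 and PSMD13 were not analysed here.

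RNA came from YCC3, a human gastric cancer cell line grown in MEM with serum, 48 hours after transfection with siRNA against CTNNB1 (3 arrays) or with a non-targeting control siRNA (3 arrays). CTNNB1 encodes beta-catenin, the co-activator of Wnt target genes, and an siRNA directs the cell to destroy a matching mRNA. The cells of both groups were transfected, and the labels name 1 cell line, describe the samples as biological replicates and do not say whether cultures were transfected on separate days, so that a p-value covers only the spread among the 6 arrays. All values are log2 signals from the Affymetrix Human Gene 1.0 ST platform, on which many short probes read a gene. Differences are CTNNB1 siRNA minus control siRNA with the standard error (SE) of the fit, and a gene is said to have risen or fallen only where limma's p, adjusted over all genes, was under 0.05. Signals of different genes were read by different probes, and their levels are not compared as amounts of RNA. Levels serve only to sort genes by brightness and to place cell type markers and dim genes on the range of signals.

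The proteasome degrades proteins tagged with ubiquitin. The cap recognises the tag, removes it and unfolds the protein with a ring of ATPases, the alpha ring gates the channel, and the beta ring cuts the protein with the catalytic subunits PSMB5 (chymotrypsin-like), PSMB6 (caspase-like) and PSMB7 (trypsin-like). When cells meet interferon they make PSMB8, PSMB9 and PSMB10, which take the places of PSMB5, PSMB6 and PSMB7, and the activator subunits PSME1 and PSME2, and this form of the particle favours peptides for display to T cells. Transcription of the constitutive subunits is known to be driven by NFE2L1, which binds antioxidant response elements in their promoters.

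On all arrays with CTNNB1 siRNA the target itself was lower than on any control array; its change was -0.77 ± 0.10 log2 units (limma, adjusted p = 0.00267). The medians of the 6 arrays were 5.88 to 5.95. All 6 measured epithelial markers had mean signals of at least 8.98, the 4 measured leukocyte markers lay at 5.59 or below, and the 5 stromal and endothelial markers at 6.72 or below. Between the groups CLDN4, an epithelial marker, rose by 0.61 ± 0.10 (SE; limma, adjusted p = 0.00763), and KRT18, another, measured -0.29 ± 0.10 (adjusted p = 0.127) with groups apart. Their part in the results below was not tested. In RNA from whole wells, fewer cells of a kind and less RNA per cell cannot be told apart. In all, 488 genes (2.65%) fell and 382 (2.07%) rose, so that 43.9% of calls were rises, against 56.3% under cyclic loess scaling.

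Among the 42 proteasome genes, PSMB5, the chymotrypsin-like subunit, fell and PSME1, an activator subunit, rose, and 40 did not pass the threshold. The share that fell, 1 of 42, was close to the 2.65% of all genes and below the 5.49% of the brightest 25% of genes, to which 38 of the 42 belong. The share that rose, again 1 of 42, compares with 2.07% of all genes and 4.08% of the brightest 25%. The changes were small and mostly negative: 35 of 42 members lay below 0, or 83.3%, against 48.8% of all genes and 61.8% of the brightest 25%. Their median change was -0.20, against 0.01 over all genes and -0.07 over the brightest 25%. Under cyclic loess the median was -0.13 and 32 of 42 lay below 0, the signs of PSMA1, PSMA4 and PSMF1 having turned. In 23 members, or 54.8%, every CTNNB1 siRNA array lay below every control array, a pattern seen in 15.2% of all genes and in 30.1% of the brightest 25%. In 2 members, or 4.76%, every CTNNB1 siRNA array lay above every control array, against 10.8% of all genes and 13.8% of the brightest 25%. An unadjusted p under 0.05 was seen for 20 members with a negative and 1 with a positive change, against 12% and 8.34% of all genes, and 23% of the brightest 25% with a negative change. Many members lay near the top of the signal range, with PSMB4 at percentile 99.5 and the cap genes between 85.1 and 98.7. The brightest 25% of genes therefore does not match their brightness, and a closer background was not made. These counts describe the family, and no test of the family as a whole was made.

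**Figure D1:**
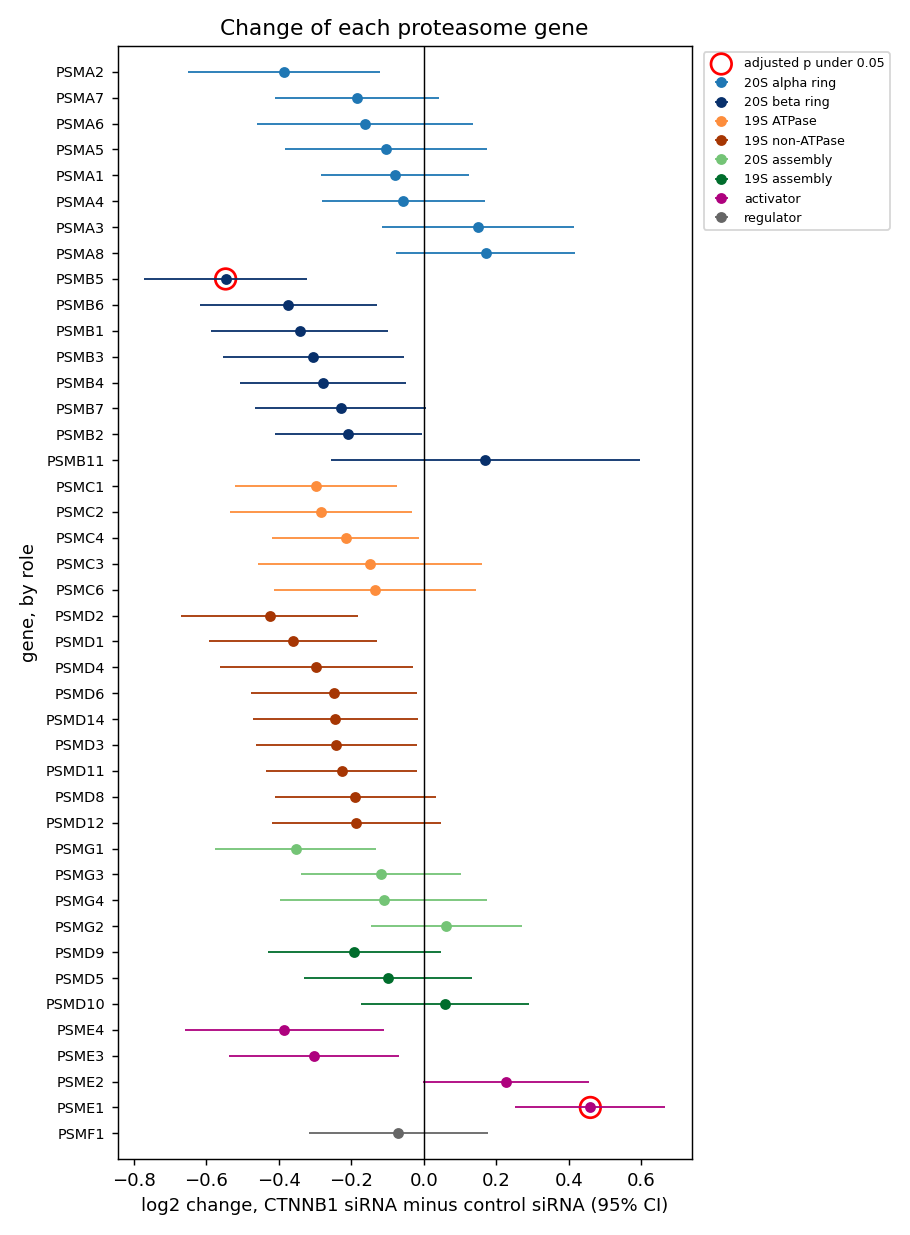
Log2 change (CTNNB1 siRNA minus control siRNA, 3 arrays each) of the 42 proteasome genes, ordered by role, with 95% confidence intervals from limma. Red rings mark PSMB5 and PSME1, the members that passed the threshold, and all 14 cap subunits lie to the left of 0.

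The sequences at the start of PSME1 and PSME2 are shown beside those of PSMB8, PSMB10 and PSMG4, because these 5 hold the same letters of an interferon element. The promoter table of RefSeq (GRCh38.p14; 250 bases before to 50 after each annotated start) held 43 promoters for 36 of the 42 members, and had no entry for PSMA7, PSMB1, PSMB6, PSMB7, PSMD4 and PSMG3. The interferon-stimulated response element was searched as 2 copies of GAAA separated by any 2 bases, on both strands, and 5 of the 43 promoters (11.6%) and 3.57% of all 35116 promoters held it. The exact form GAAAGCGAAA, chosen after the matches were seen, occurred in 35 of all promoters (0.0997%), 3 of them those of PSME1, PSME2 and PSMG4. The induced genes PSMB8 and PSMB10 held it too. Each stretch is shown 5′ to 3′ on the strand of its gene with the match in capitals, which for PSME1 and PSMB8 reads as the opposite strand:
PSME1 (chr14:24136189-24136218, plus strand): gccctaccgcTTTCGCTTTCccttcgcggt
PSME2 (chr14:24146619-24146648, minus strand): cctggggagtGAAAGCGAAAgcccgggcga
PSMB8 (chr6:32844032-32844061, minus strand): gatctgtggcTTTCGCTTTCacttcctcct
PSMB10 (chr16:67936852-67936881, minus strand): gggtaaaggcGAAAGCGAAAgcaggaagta
PSMG4 (chr6:3258904-3258933, plus strand): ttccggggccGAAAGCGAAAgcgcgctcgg

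The match began 5 bases after the start of PSME1 and 28, 4, 21 and 33 bases before that of PSME2, PSMB8, PSMB10 and PSMG4. Of the genes with this element, PSMB8 and PSME1 rose, while PSME2 measured 0.23 ± 0.10 (SE), PSMB10 0.10 ± 0.13 and PSMG4 -0.11 ± 0.13. The looser form was also found for PSMB4 (GAAAAAGAAA) and PSMA4 (GAAAATGAAA), with changes of -0.28 ± 0.10 and -0.06 ± 0.10. No match was found in the window of PSMB9, which rose by 1.85 ± 0.14. A match is a likeness of letters and was not tested as a binding site.

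For PSMB5, the member that fell, the 250 bases before the outer of its 2 annotated starts are shown because no searched motif lay in them. The motifs were the interferon-stimulated response element (as above), the antioxidant response element (TGACNNNGC) and the TCF/LEF site of Wnt target genes (CTTTGAT), on both strands.
PSMB5 (chr14:23035221-23035470, minus strand): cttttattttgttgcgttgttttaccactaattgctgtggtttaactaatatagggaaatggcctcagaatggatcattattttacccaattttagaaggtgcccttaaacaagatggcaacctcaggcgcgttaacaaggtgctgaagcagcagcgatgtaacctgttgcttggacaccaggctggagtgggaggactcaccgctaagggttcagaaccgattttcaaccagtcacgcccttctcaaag

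The TCF/LEF letters CTTTGAT were found in none of the 43 member promoters and in 2.62% of all promoters. The antioxidant element TGACNNNGC was found in 13 of 43 (30.2%), against 13.3% of all promoters, and the member promoters had a median GC content of 62% against 58.7%. Of the genes with the antioxidant letters, PSMB3, PSMC4, PSMD1, PSMD3, PSMG1 and PSME4 had a negative and PSME1 a positive change at an unadjusted p under 0.05, which 21 of all 42 members had. PSMD1, a scaffold of the cap, and PSMG1, which helps to build the alpha ring, are shown as carriers with a negative change:
PSMD1 (chr2:231056896-231056916, plus strand): aggaggcgacTGACTGAGCag
PSMG1 (chr21:39183616-39183644, minus strand): gcccagggcaTGACAGCGCgggcgggcgg

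In the beta ring, 7 of 8 genes measured lower with CTNNB1 siRNA, and these 7 had groups that did not overlap. Groups lay apart in this direction in 15.2% of all genes and in 30.1% of the brightest 25%. PSMB5 read 9.35, 9.17 and 9.29 on the control arrays and 8.67, 8.65 and 8.85 on the CTNNB1 siRNA arrays. The highest CTNNB1 siRNA value lay well below the lowest control value. This was a fall of 0.55 ± 0.10 (SE) log2 units, or 31.5% less signal (limma, adjusted p = 0.0151), and the 256th lowest change of all genes. PSMB6, the caspase-like subunit, read 10.99, 10.90 and 11.07 in controls and 10.45, 10.76 and 10.64 with CTNNB1 siRNA. Its groups were apart, and its change of -0.37 ± 0.11 missed the threshold (limma, adjusted p = 0.0829). PSMB1, a structural subunit, read 10.05, 9.91 and 10.13 against 9.56, 9.68 and 9.84. The groups of PSMB1 were apart by less, with a change of -0.34 ± 0.11 (adjusted p = 0.110). PSMB7, the trypsin-like subunit, measured -0.23 ± 0.11, and the structural subunits PSMB2, PSMB3 and PSMB4 measured -0.21 ± 0.09, -0.30 ± 0.11 and -0.28 ± 0.10. PSMB11, a subunit of thymic epithelium, was dim, with means of 4.20 and 4.37 below the array medians, and read 4.87 on CTNNB1 siRNA replicate 2 but at most 4.25 on the other CTNNB1 siRNA arrays.

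The call of PSMB5 was lost without control replicate 1 (adjusted p = 0.0853), control replicate 3 (0.0585), CTNNB1 siRNA replicate 1 (0.0729) or CTNNB1 siRNA replicate 2 (0.0548), with changes between -0.61 and -0.51 over the arrays left out. It was kept under each of the other scalings tried, between -0.56 and -0.47.

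The alpha ring had small changes. Of its 8 genes 6 had negative changes, 2 had groups apart, none passed the threshold and 1 had an unadjusted p under 0.05, with a median change of -0.09 against -0.29 in the beta ring (-0.01 against -0.21 under cyclic loess). Groups lay apart downward in 15.2% of all genes and 30.1% of the brightest 25%, and a negative change at that p was seen in 12% and 23%. PSMA2 read 8.84, 8.73 and 8.94 in controls and 8.28, 8.41 and 8.66 with CTNNB1 siRNA. All its CTNNB1 siRNA values were below the controls, at -0.38 ± 0.12 (limma, adjusted p = 0.0977). PSMA7 measured -0.18 ± 0.10 with groups apart. PSMA1, PSMA4, PSMA5 and PSMA6 measured between -0.16 and -0.06 with groups that overlapped. PSMA3 had a positive change, 0.15 ± 0.12, and its groups overlapped. PSMA8, which replaces PSMA7 in male germ cells, was at 3.02 and 3.19, far below the array medians. Without PSMA8 and PSMB11, 13 of 14 core genes had negative changes, with a median of -0.22. The difference between the rings was not tested.

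**Figure D2:**
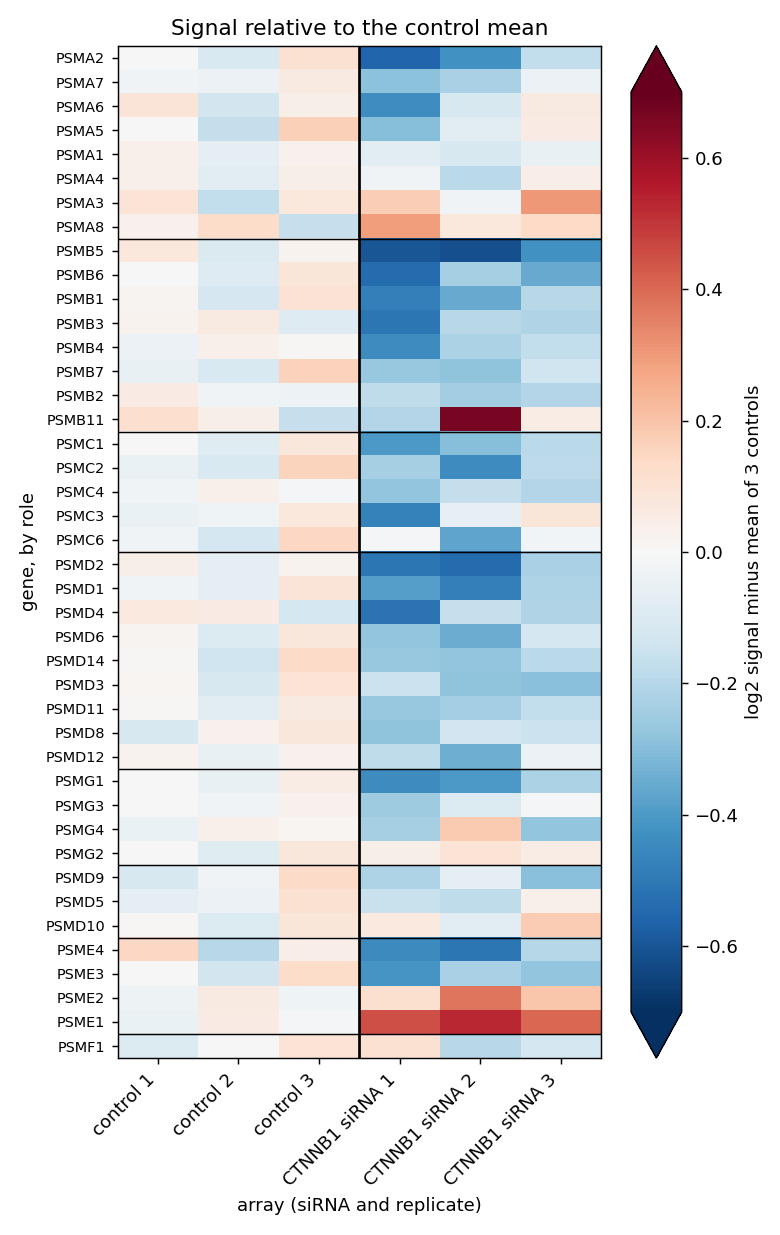
Log2 signal of each of the 42 genes (rows, ordered by role, lines between roles) on each of the 6 arrays, minus the gene's mean over the 3 control arrays. Blue is lower and red higher. Most beta ring and cap genes are blue on all CTNNB1 siRNA arrays, many but not all of them palest on replicate 3, while PSME1 and PSME2 are red there.

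In the cap all 14 genes had negative changes, between -0.43 and -0.13, as they had under each scaling, and 11 had groups apart. None passed the threshold, and 10 had an unadjusted p under 0.05. Of all genes, 48.8% had a negative change, 15.2% had groups apart in this direction and 12% had a negative change at that p. In the brightest 25% these shares were 61.8%, 30.1% and 23%. The median change was -0.24, close to that of the core without its germ cell and thymic subunits. PSMD2, the scaffold on which ubiquitin shuttles dock, read 10.19, 10.09 and 10.17 in controls and 9.64, 9.61 and 9.92 with CTNNB1 siRNA. Each CTNNB1 siRNA value was below each control value, and replicate 3 was nearest to the controls. The change of PSMD2 was -0.43 ± 0.11 (limma, adjusted p = 0.0562). PSMD1, the other large scaffold, read 10.12, 10.08 and 10.23 against 9.76, 9.66 and 9.92. It measured -0.36 ± 0.10 (adjusted p = 0.0809), again with replicate 3 nearest to the controls. PSMD4, a ubiquitin receptor, measured -0.30 ± 0.12 (-0.19 without CTNNB1 siRNA replicate 1) and PSMD14, the enzyme that removes the ubiquitin chain, -0.24 ± 0.10. The remaining non-ATPase subunits PSMD3, PSMD6, PSMD8, PSMD11 and PSMD12 lay between -0.25 and -0.19.

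Of the ATPases, which unfold the substrate, PSMC1 measured -0.30 ± 0.10 (limma, adjusted p = 0.128), PSMC2 -0.28 ± 0.11 and PSMC4 -0.22 ± 0.09, all with groups apart. That is 3 of 5, against 15.2% of all genes and 30.1% of the brightest 25% with groups apart downward. PSMC3 and PSMC6 measured -0.15 ± 0.14 and -0.13 ± 0.13 with groups that overlapped. PSMC3 read 9.39 on CTNNB1 siRNA replicate 1 and 9.80 and 9.94 on the others, the last above all controls. PSMC1 and PSMC6 had a further row each, with changes of -0.29 ± 0.10 and -0.15 ± 0.15. RefSeq lists pseudogenes under the symbols of 20 of the 42 members, 13 of them for PSMC1, and signal from such copies cannot be told apart from that of the gene.

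The mean signal of each role on each array showed how far the groups lay apart. The beta ring genes had means of 9.99, 9.93 and 9.98 on the control arrays and 9.56, 9.78 and 9.76 on the CTNNB1 siRNA arrays. The cap genes had means of 10.03, 9.98 and 10.10 against 9.73, 9.74 and 9.88. In both the groups were apart, whereas the alpha ring means of 9.59, 9.47 and 9.60 against 9.40, 9.42 and 9.59 overlapped. Within the groups the arrays differed in 1 direction for many members: 26 of 42 were highest on control replicate 3 among the controls, and 25 of 42 on CTNNB1 siRNA replicate 3 among the CTNNB1 siRNA arrays. The brightest 25% of all genes had its highest control mean on replicate 3 as well, 9.19 against 9.12 and 9.10. On the CTNNB1 siRNA arrays its means were 9.11, 9.04 and 9.11, so that replicate 3 did not stand out, whereas the 42 members had means of 9.34, 9.40 and 9.48. Shares of all genes highest on each array were not counted. The part of such array differences in the family's shift was not tested.

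**Figure D3:**
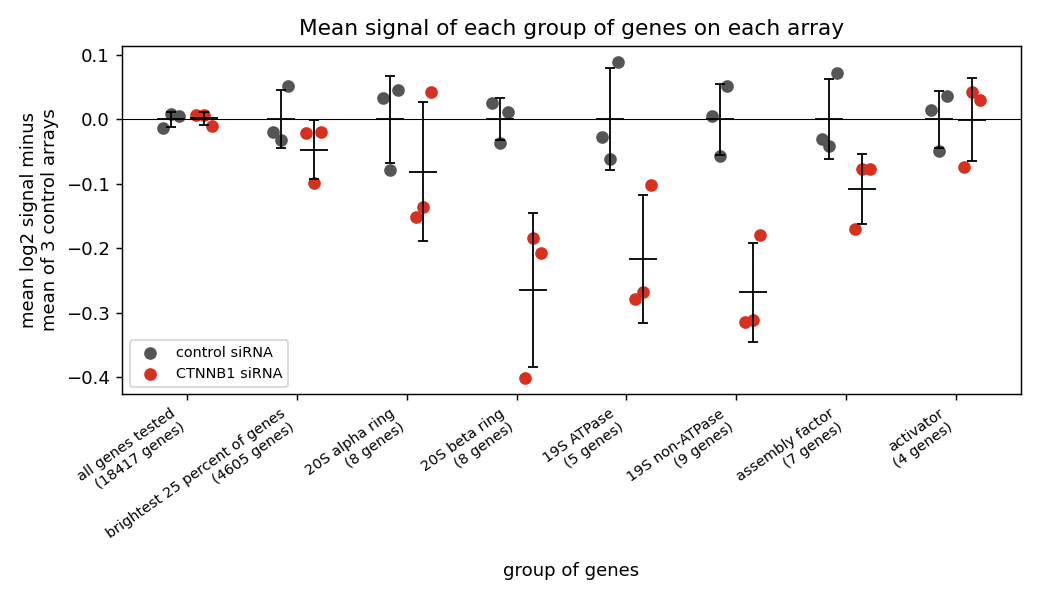
Mean log2 signal of the genes of each group on each array (points), minus the mean of the 3 control arrays, with the mean and SD of each siRNA group (black). The beta ring, both cap groups and, by less, the assembly factors lie lower on all CTNNB1 siRNA arrays than on any control array, and the means over all genes lie near 0 on every array.

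Of the 4 activators 2 had positive and 2 negative changes, under every scaling, and in each of them the groups did not overlap. Groups lay apart upward in 10.8% and downward in 15.2% of all genes, and in 13.8% and 30.1% of the brightest 25%. PSME1, which with PSME2 forms the activator ring induced by interferon, read 9.69, 9.79 and 9.73 in controls and 10.19, 10.27 and 10.14 with CTNNB1 siRNA. The values within each group lay close together and far from the other group. This was a rise of 0.46 ± 0.09 log2 units, or 1.37-fold (limma, adjusted p = 0.0221). PSME2 read 9.25, 9.35 and 9.26 against 9.40, 9.66 and 9.48. Its groups were just apart, at 0.23 ± 0.10 (limma, adjusted p = 0.249; 95% confidence interval -0.002 to 0.45). PSME3, the nuclear relative of PSME1 and PSME2, read 9.83, 9.71 and 9.96 against 9.42, 9.61 and 9.56. Here the CTNNB1 siRNA arrays were the lower ones, at -0.30 ± 0.11 (limma, adjusted p = 0.138). PSME4, a large single-chain activator, read 8.77, 8.43 and 8.67 against 8.17, 8.11 and 8.42. Its highest CTNNB1 siRNA value almost met its lowest control value, and the change was -0.38 ± 0.12 (adjusted p = 0.110).

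Within each array, the log2 signal of PSME1 minus that of PSME3 was -0.10 ± 0.16 in controls and 0.67 ± 0.09 with CTNNB1 siRNA (SD, n = 3 each; two-sided exact permutation test, p = 0.10, adjusted p = 0.12). The same difference for PSME1 minus PSME4 went from 1.12 ± 0.23 to 1.96 ± 0.22, and for PSME2 minus PSME3 it went from -0.55 ± 0.18 to -0.02 ± 0.07, both with the same exact p. With 3 arrays against 3 this test cannot go below 0.10, and p-values were adjusted over the 6 pairs of genes compared. The pairs were chosen with earlier results of these data known, so that these p-values only describe whether the groups lay apart and lend a shift no support. The call of PSME1 was lost without control replicate 1 (adjusted p = 0.114), control replicate 3 (0.0750), CTNNB1 siRNA replicate 1 (0.0787) or CTNNB1 siRNA replicate 2 (0.0718), with changes between 0.43 and 0.49. Under the other scalings it was kept, between 0.45 and 0.54.

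Of the induced catalytic subunits, PSMB8 and PSMB9 rose, as PSME1 did, where PSMB5 fell and PSMB6 measured lower. PSMB9 read between 7.50 and 7.87 in controls and 9.32, 9.77 and 9.51 with CTNNB1 siRNA, a rise of 1.85 ± 0.14 log2 units or 3.61-fold (limma, adjusted p = 3.81e-05). Its call was lost without moderation of the variances (adjusted p = 0.0553). PSMB8 rose by 0.86 ± 0.10, or 1.82-fold (limma, adjusted p = 0.00108). PSMB10, at 0.10 ± 0.13, did not pass. The log2 signal of PSMB8 minus that of PSMB5 went from -0.85 ± 0.18 to 0.56 ± 0.10, which is a 2.65-fold shift of their ratio (SD, n = 3 each; exact permutation p = 0.10). For PSMB9 against PSMB6 the shift of the ratio was 4.67-fold, again with groups apart and an exact p of 0.10. For PSMB10 against PSMB7 it was 1.26-fold with groups that overlapped (exact permutation p = 0.30). These pairs too were chosen with earlier results known, and the same limit holds for their p-values. The ratios say nothing of the relative amounts of the members of a pair.

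**Figure D4:**
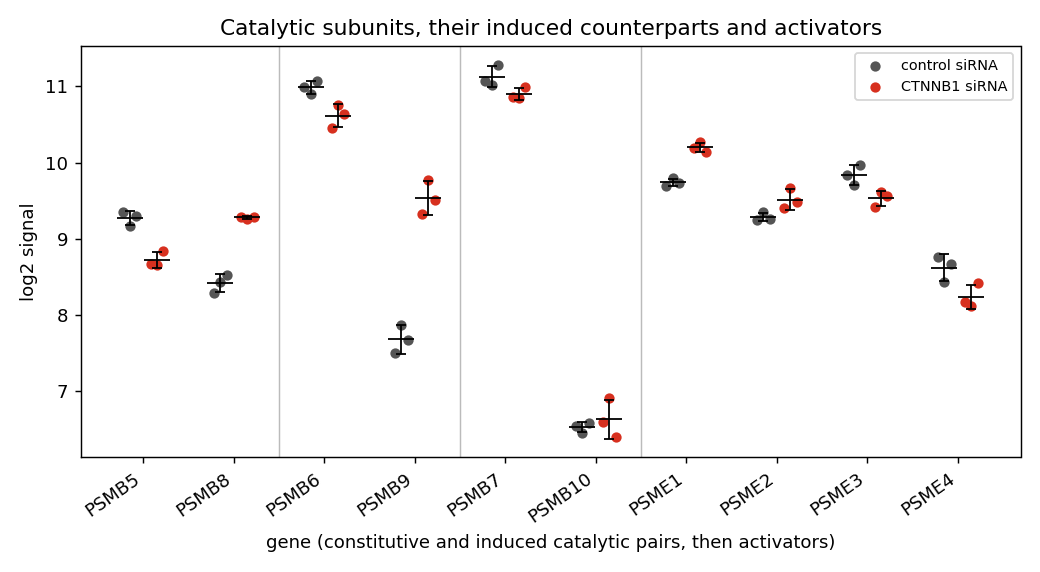
Log2 signal on each array of the catalytic subunits PSMB5, PSMB6 and PSMB7, each beside its induced counterpart, and of the 4 activators, with the mean and SD of each group of 3 arrays (black). PSMB5 lies lower with CTNNB1 siRNA while PSMB8, PSMB9 and PSME1 lie higher; levels are comparable within a gene only.

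Assembly factors and the regulator had small changes. Of the 7 assembly factors 5 had negative changes, none passed the threshold and the median was -0.11. A negative change was seen in 48.8% of all genes and in 61.8% of the brightest 25%. PSMG1 read 8.88, 8.83 and 8.94 in controls and 8.44, 8.48 and 8.66 with CTNNB1 siRNA. It was the only assembly factor whose groups were apart, at -0.35 ± 0.10 (limma, adjusted p = 0.0750). That is 1 of 7, or 14.3%, against 15.2% of all genes and 30.1% of the brightest 25% with groups apart downward. Its partner PSMG2, with which it forms a chaperone of the alpha ring, measured 0.06 ± 0.09, with overlapping groups. The second chaperone pair, PSMG3 and PSMG4, measured -0.12 ± 0.10 and -0.11 ± 0.13, the latter -0.26 without CTNNB1 siRNA replicate 2, -0.05 without replicate 1 and -0.03 without replicate 3. The cap chaperones PSMD5, PSMD9 and PSMD10, the last also known as the oncoprotein gankyrin, measured -0.10 ± 0.10, -0.19 ± 0.11 and 0.06 ± 0.10. PSMF1, which binds the core and can inhibit it, measured -0.07 ± 0.11, with a positive sign under cyclic loess (0.01). The prefix-only genes PSMC3IP and PSME3IP1 measured -0.05 ± 0.10 and -0.23 ± 0.16, and the sign of PSMC3IP was positive when the arrays were quantile normalized again or scaled by cyclic loess. The change of PSME3IP1 was -0.01 without CTNNB1 siRNA replicate 2.

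The other genes of the pathway came from a list of 35, of which 29 were measured. ECPAS, a scaffold that holds core and cap together, fell, and 28 missed the threshold, so that 1 of 29 fell, against 2.65% of all genes and 5.49% of the brightest 25%. Of the 29 changes 22, or 75.9%, were negative, against 48.8% and 61.8%, and their median was -0.10. ECPAS read 9.38, 9.20 and 9.33 in controls and 8.65, 8.68 and 8.78 with CTNNB1 siRNA. Its groups were far apart, with a fall of 0.60 ± 0.10 log2 units (limma, adjusted p = 0.00819), and the call was lost without control replicate 1 (adjusted p = 0.0530), without moderation of the variances (0.0694) and over all rows of the table (0.0531). PAAF1, which binds the ATPases of the cap, measured -0.46 ± 0.12 (adjusted p = 0.0629), and VCP, the segregase that delivers ubiquitylated proteins, -0.33 ± 0.09 (adjusted p = 0.0737). Both passed with array weights (PAAF1 0.0458, VCP 0.0491) and with a trended variance (0.0188 and 0.00844). MAFF, a small partner of NFE2L1 and related factors, measured 0.41 ± 0.11 (limma, adjusted p = 0.0632), and passed after a second quantile normalization (0.0415), under cyclic loess (0.0396), with array weights (0.0326) and with a trended variance (0.0282). NFE2L1 itself was named with its values known. It measured 0.24 ± 0.10 (limma, adjusted p = 0.215) with groups apart, and its sign was opposite to that of most subunits. The subunits without the prefix, ADRM1, SEM1 and UCHL5, likewise named with their values known, measured -0.13 ± 0.11, 0.08 ± 0.11 and -0.30 ± 0.13.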

How the data were processed

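RNA of 6 samples of a cell line was measured on single-colour arrays. The table deposited by the authors holds log2 signals; RMA and Affymetrix Expression Console 1.1 are named in the submitters' processing notes, and the scale was read from the values. RMA gives all arrays like distributions, which hides any change common to most genes. The genome build is not given in the sources used here. Background calls per probe were not used, and the number of arrays limits the precision.

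Of 33297 rows, 19460 carried exactly 1 gene symbol, 1754 several and 12083 none. The brightest row of each gene over all arrays was kept, leaving 18417 genes. The fit was made with limma (version 3.58.1; R 4.3.3) by lmFit and eBayes, two-sided, with Benjamini-Hochberg adjustment over all genes; the exact permutation tests used SciPy 1.17.1. On simulated data for this comparison, 200 of 18417 genes were changed, 50 at each size. The fit recovered 0% of changes of 0.3, 26% of changes of 0.5 and 74% of changes of 1 log2 unit, and 8.33% of its calls were unchanged genes. Most member changes were of a size seldom called in that simulation. Fewer genes were changed there than were called in the data, and they were drawn from all signal levels. Its recovery therefore need not hold for the members.

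The members, lists, roles, motifs and gene pairs were chosen with earlier results of these data known. Named by rule were called members, the 3 smallest p of each role, the activators and induced subunits, and called or the 4 smallest p among other pathway genes. Other members are given by name only to complete their role. No pair of arrays of a group was identical. Deviations of same-numbered arrays from their group means had correlations of -0.0188, 0.329 and 0.223, and those of unlike-numbered arrays lay between -0.293 and 0.0777. Replicates 2 and 3 thus deviated with their namesakes more than any unlike-numbered arrays did, while replicate 1 did not. The labels state no pairing, and none was assumed in the main fit. With a replicate block 707 genes fell and 470 rose, against 488 and 382 without it. The alternatives were a replicate block, other scalings, filters on dim genes, other variance models, other choices of row, another threshold and leaving out each array.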

Additional observations from a re-analysis of the deposited data

How the results depend on the processing

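The number of members that fell, 1 as reported, was 2 with a replicate block or array weights, 5 and 10 without the dimmest 25% or 50% of genes, 10 with a trended and robust variance, 6 at an adjusted p threshold of 0.10, and 0 without moderation or over all rows of the table. The number that rose, 1, was 0 in the last 2 of these. With 1 array left out, 0 to 3 members fell and 0 to 1 rose. Over all genes, falls numbered 927 and 1216 without the dimmest 25% or 50%, 1036 with a trended variance, 36 without moderation, 57 over all rows and 1008 at 0.10, and between 95 and 513 with 1 array left out. As shares of the genes tested, falls were 6.71% and 13.2% without the dimmest 25% or 50%, where 40 members remained. They were 5.63% with a trended variance, 5.47% at 0.10, 3.84% with a replicate block and 3.69% with array weights, against 2.65% as reported. Rises numbered 645 without the dimmest 50%, 586 with a trended variance, 75 without moderation, 138 over all rows and 660 at 0.10, and between 183 and 364 with 1 array left out. CTNNB1, at -0.77, missed the threshold without moderation (adjusted p = 0.0660). The median change of the core was -0.12 under cyclic loess, against -0.20. That of the cap lay between -0.28 and -0.16 and that of the assembly factors between -0.14 and -0.05 over the alternatives run. That of the 4 activators, -0.04, turned sign after a second quantile normalization (0.00119), under cyclic loess (0.0386) and without CTNNB1 siRNA replicate 1 (0.0169). Signs turned for PSMC3IP (0.00278 after a second quantile normalization, 0.00947 under cyclic loess) and PSMF1 (0.00806 under cyclic loess), and, with 1 array left out, for PSMB10 (between -0.0314 without CTNNB1 siRNA replicate 2 and 0.220) and PSMD10 (between -0.00127 without CTNNB1 siRNA replicate 3 and 0.123). PSMD2 (adjusted p = 0.0448) and PAAF1 (0.0309) passed with the replicate block, which did not end the calls of PSMB5 (adjusted p = 0.0188) and PSME1 (0.0262). That setting treats arrays with the same replicate number as pairs, which the labels do not state and the main fit did not assume. The cause of these differences was not tested, beyond the fewer genes or samples that some settings use.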
